A study of Mus musculus with 4 samples.

Results

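The neighbourhood of Ackr3 and Col6a3 on mouse chromosome 1 was among the places where peaks of the nuclear receptor NR6A1 lay closest together. The members described here are the NR6A1 peaks with a midpoint from 92 to 93 Mb of chromosome 1 on the mm9 build. They were chosen by the peak positions themselves, with the lists known, so the number of peaks in this window is a description and carries no test. Replicate 1 had 39 peaks in the window of 21507 in its list, and replicate 2 had 31 of 16160. Merged over both lists they formed 54 regions of 28444. Ackr3, also called Cxcr7, was given at about 92.10 Mb and Col6a3 at about 92.66 to 92.74 Mb, both known here to about 10 kb.

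The peaks came from chromatin immunoprecipitation followed by sequencing (ChIP-seq) with an antibody to the HA tag. The 2 NR6A1 libraries were from immortalized monoclonal murine MSC (mesenchymal stem cell) lines of the C57BL/6 strain, with floxed Dicer alleles (Dicer f/f) that the labels call Dicer WT, and with Flag-HA-NR6A1 carried by a retrovirus under puromycin selection. The 2 vector libraries shared strain, Dicer f/f alleles, puromycin and antibody, carried the retroviral vector without NR6A1, and were not analysed here. The receptor was therefore a tagged protein from a retrovirus, in cells grown from single clones, and the sources used here do not say whether both replicates used the same clone.

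NR6A1, or germ cell nuclear factor, is an orphan nuclear receptor known mainly as a repressor of genes during early development, and it binds direct repeats of the core motif of nuclear receptors. Ackr3 encodes an atypical chemokine receptor that binds and clears CXCL12 and works through arrestins rather than G proteins. Col6a3 encodes the α3 chain of collagen VI, which joins the α1 and α2 chains to form the beaded microfilaments around mesenchymal cells. In the order of the RefSeq gene table, Cops8, a subunit gene of the COP9 signalosome, was the 1 protein-coding gene between them, with 12 long noncoding RNA genes. That table is of the GRCm38 build, so it served for gene order only, and peaks were not assigned to exons, introns or start sites.

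The start regions of both genes are shown as the regulatory sequence at which the genes of this window begin. The nearest replicate 1 peaks, given further on, lay within 10 kb of the given gene positions, which is the precision of those positions, so whether a peak covers either start was not resolved. They are RefSeq sequences of GRCm38.p6, from 250 bases before to 50 bases after the annotated start, and their GRCm38 positions cannot be set against the mm9 positions of the peaks. Capitals mark the letters TATAAA, which were looked for after the sequences were seen. They begin 8 bases before the annotated Ackr3 start, nearer to it than a TATA box usually lies, so they are given as letters only.
Ackr3 (plus strand, chr1:90203730-90204029): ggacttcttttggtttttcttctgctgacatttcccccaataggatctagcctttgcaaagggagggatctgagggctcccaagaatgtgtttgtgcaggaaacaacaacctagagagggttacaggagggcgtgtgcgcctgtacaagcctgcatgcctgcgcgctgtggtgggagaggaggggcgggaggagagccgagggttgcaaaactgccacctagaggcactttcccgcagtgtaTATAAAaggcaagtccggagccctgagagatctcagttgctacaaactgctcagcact
Col6a3 (minus strand, chr1:90843922-90844221): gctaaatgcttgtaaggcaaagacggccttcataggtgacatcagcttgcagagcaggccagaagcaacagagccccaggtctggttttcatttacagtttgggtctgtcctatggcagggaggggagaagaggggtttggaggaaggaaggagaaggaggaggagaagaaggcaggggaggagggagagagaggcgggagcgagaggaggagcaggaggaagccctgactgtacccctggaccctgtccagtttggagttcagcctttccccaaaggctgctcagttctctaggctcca

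Neither start region held the core motif AGGTCA on either strand, which 16.3% of 32851 RefSeq promoters of the same length held. The longer form TCAAGGTCA, which contains AGGTCA, was likewise in neither and was in 0.423% of all promoters. TATAAA was in the Ackr3 region, was not in that of Col6a3, and was in 13.6% of all promoters on either strand. The GC content was 54.0% for Ackr3 and 56.3% for Col6a3, against a median of 52.7% over all promoters. A missing match says only that these letters are not in these 300 bases.

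The window held more peaks than all but a few other stretches of 1 Mb. Of 2124 windows of 1 Mb with a peak in either list, 9 had at least 39 replicate 1 peaks and 12 had at least 31 replicate 2 peaks, this one included. The median over those windows was 8 peaks in replicate 1 and 6 in replicate 2. On chromosome 1, with 161 such windows, none of the others had as many peaks in both lists together. Both neighbouring windows held fewer: the window from 91 to 92 Mb had 15 replicate 1 and 11 replicate 2 peaks, and that from 93 to 94 Mb had 18 and 14. The place of the borders matters to this rank, since the window from 91.5 to 92.5 Mb had 21 and 17 peaks and that from 92.5 to 93.5 Mb had 29 and 23.

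**Figure D1:**
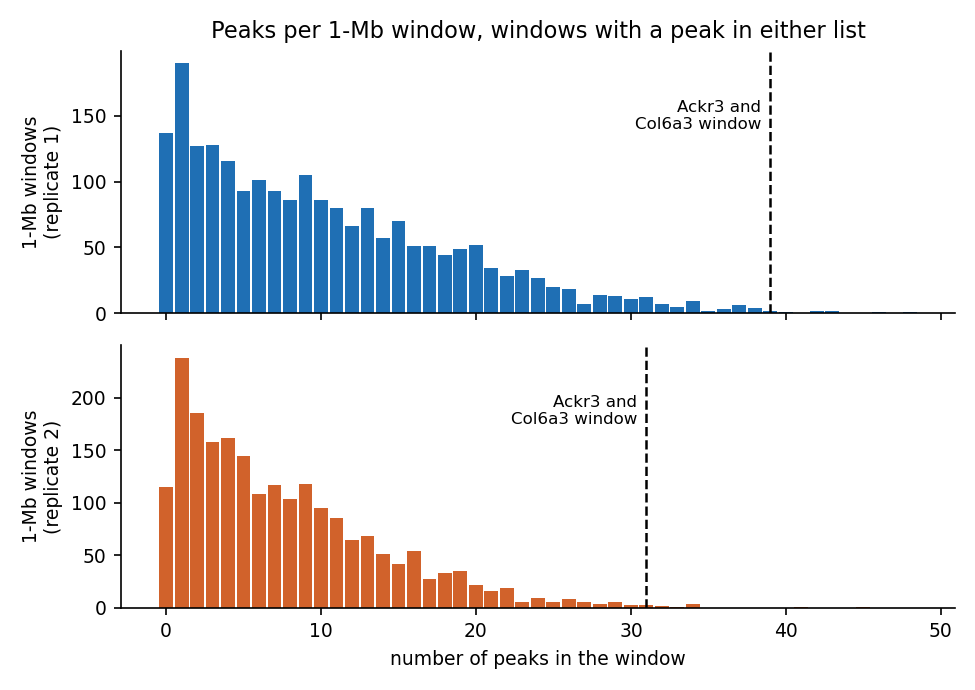
Histograms of the number of NR6A1 peaks per 1-Mb window (x axis) over the 2124 windows with a peak in either list (y axis, number of windows), for replicate 1 above and replicate 2 below. The dashed lines mark the Ackr3 and Col6a3 window, at 39 and 31 peaks, in the sparse upper end of both histograms.

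With all peaks taken, the replicates shared peaks here about as often as in their whole lists. A partner means a peak of the other list that overlaps by at least 1 bp. Of the replicate 1 peaks in the window 16 of 39 had one, or 41.0% (95% Wilson interval 27.1 to 56.6%, counting error only), against 42.7% of the whole replicate 1 list. Of the replicate 2 peaks 16 of 31 had one, or 51.6% (34.8 to 68.0%), against 56.0% of the whole replicate 2 list. Both intervals hold the share of the whole list. Among the upper 50% of scores of each list, 5 of 21 replicate 1 peaks in the window had a partner, or 23.8% (10.6 to 45.1%), against 38.0% of the whole list at the same limit, and 5 of 12 replicate 2 peaks, or 41.7% (19.3 to 68.0%), against 50.2%. These shares were below those of the lists, which their intervals still hold. By regions, 16 of 54 were in both lists, or 29.6% (19.1 to 42.8%), against 31.7% of all regions, with 23 in replicate 1 only and 15 in replicate 2 only.

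Set beside the other windows with as many peaks, this one had the smallest part of its regions in both lists. In the 8 other windows with 70 or more peaks over both lists, 31.5% to 56.8% of regions were in both, with a median of 48.6%. The window of 29.6% lay just below the lowest of them, which also had 54 regions, of which 17 were in both lists. These windows were ranked by their peak number after the lists had been seen, and the difference was not tested.

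**Figure D2:**
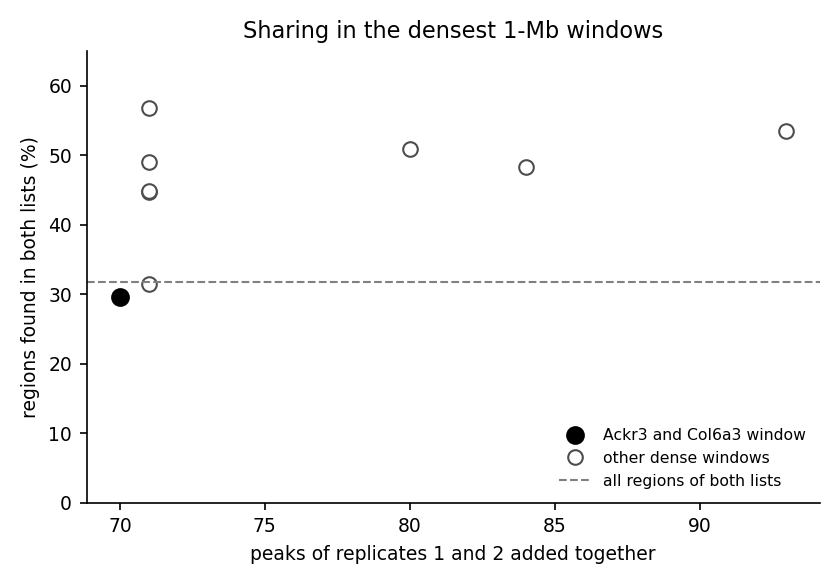
Share of regions found in both lists (y axis, percent) against the number of peaks of both replicates added together (x axis), for the 9 windows of 1 Mb with 70 or more peaks. The filled point is the Ackr3 and Col6a3 window at 70 peaks and 29.6%, the open points are the 8 other windows at 31.5% to 56.8%, and the dashed line is the 31.7% over all regions.

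Median scores in the window were near those of the whole lists, while replicate 2 had a smaller share of high scores. The score is the authors' value for each peak and is read as a log-transformed p-value from MACS, so that a higher score stands for a smaller p-value within its list. It starts just above 200 in both lists and goes to 2095 in the window in replicate 1 and to 1664 in replicate 2, and no peak reached 3100, the value that many peaks of the whole lists share. The median was 456 in the window against 417 in the whole list for replicate 1, and 360.1 against 394 for replicate 2. A score of 1000 or more was reached by 6 of 39 replicate 1 peaks, or 15.4% (7.25 to 29.7%), against 15.9% of the list. In replicate 2 it was reached by 2 of 31, or 6.45% (1.79 to 20.7%), against 14.0% of the list, which that interval still holds. None of the 16 partner pairs of the window had both scores at 1000 or more, as 10.8% of the 9223 pairs of the whole lists did. With so few pairs, no difference is read from this.

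For the comparison along the window it was divided into 4 parts: the Ackr3 side from 92.0 to 92.2 Mb, the stretch between from 92.2 to 92.6 Mb, the Col6a3 side from 92.6 to 92.8 Mb, and the distal part from 92.8 to 93.0 Mb. Replicate 1 had 8, 17, 8 and 6 peaks in these parts in that order, which is 4, 4.25, 4 and 3 per 100 kb. Replicate 2 had 11, 7, 7 and 6 peaks, which is 5.5, 1.75, 3.5 and 3 per 100 kb. The replicates were thus most alike in number over the Col6a3 side and the distal part, and furthest apart in the stretch between. These counts use all peaks, and the replicate 1 list is the longer.

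**Figure D3:**
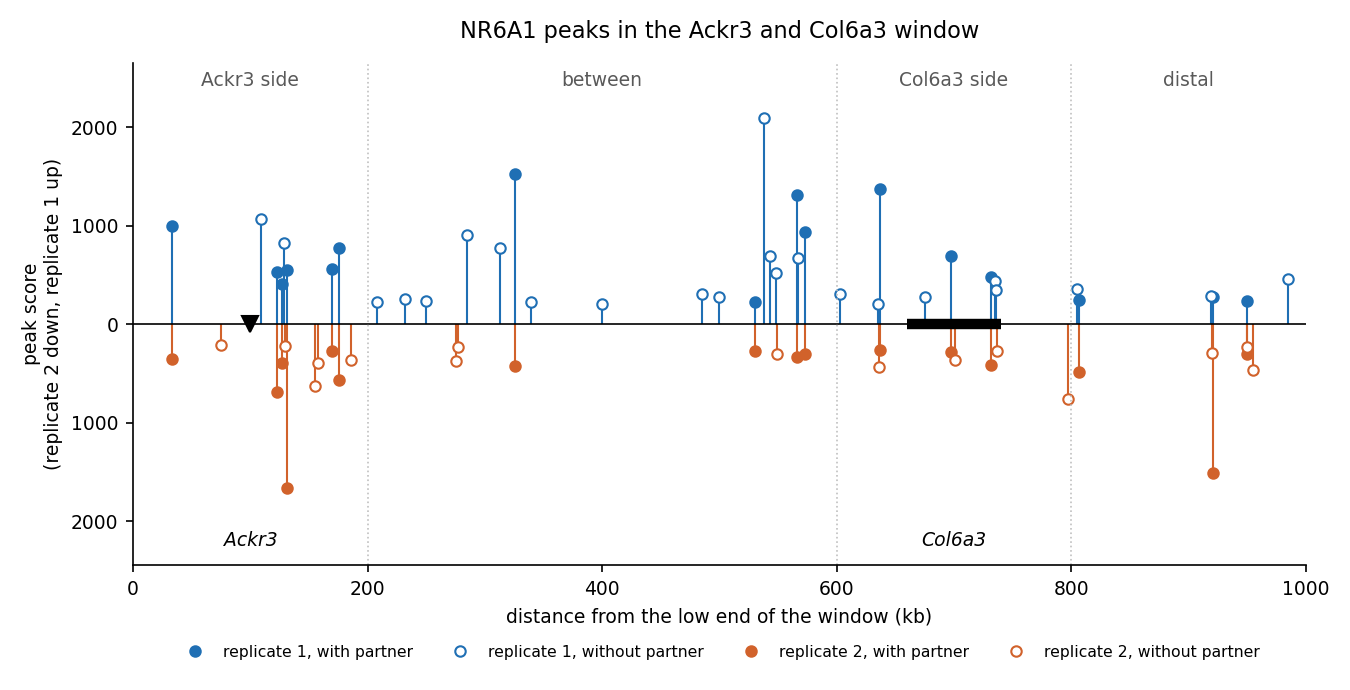
Every NR6A1 peak of the window by its distance from the low end of the window (x axis, kb) and its score (y axis), with replicate 1 drawn upward and replicate 2 downward. Filled points have a partner in the other replicate and open points have none; the triangle and the thick bar mark the approximate positions of Ackr3 and Col6a3. Replicate 2 has a long empty stretch in the middle, where replicate 1 has 4 low peaks.

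The share of peaks with a partner was also taken by part, on few peaks each. On the Ackr3 side 6 of 8 replicate 1 peaks had a partner, or 75% (40.9 to 92.9%), and 6 of 11 replicate 2 peaks did, or 54.5% (28.0 to 78.7%). In the stretch between, 4 of 17 replicate 1 peaks had one, or 23.5% (9.56 to 47.3%), and 4 of 7 replicate 2 peaks did, or 57.1% (25 to 84.2%). On the Col6a3 side 3 of 8 and 3 of 7 peaks had a partner, and in the distal part 3 of 6 in each list. The replicate 1 shares thus ran from 23.5% to 75% and the replicate 2 shares from 42.9% to 57.1%. The whole lists had 42.7% for replicate 1 and 56.0% for replicate 2, and the interval of every part holds the share of its list. The intervals of the parts also overlap in both lists, so no difference between parts is read from them. No test was made over peaks, which are not replicates.

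**Figure D4:**
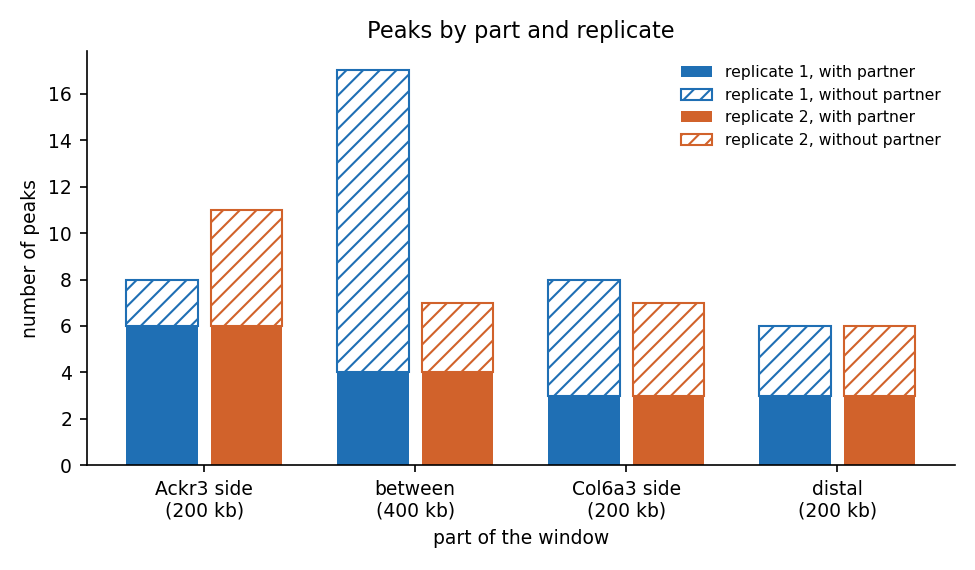
Number of NR6A1 peaks (y axis) in each part of the window (x axis), with replicate 1 left and replicate 2 right in each pair of bars. The filled share of a bar has a partner in the other replicate and the hatched share has none; the 13 hatched peaks of replicate 1 in the stretch between are the most of any bar.

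Around Ackr3, the chemokine receptor gene, the peaks lay mostly above its approximate position, in the direction of Col6a3. The bin from 92.1 to 92.2 Mb was the fullest of the 10 bins of 100 kb in replicate 2, with 9 peaks, and had 7 in replicate 1, with 5 regions in both lists. The bin from 92.0 to 92.1 Mb had 1 and 2 peaks. The peak nearest to the given position in replicate 1 was at 92108837 to 92109410, about 9 kb above it, with a score of 1073. That peak had no partner, and the next replicate 2 peak was 12.7 kb away. The nearest replicate 2 peak above was at 92122103 to 92122743, about 22 kb away, and the nearest below was at 92074475 to 92074958, about 25 kb away, with a score of 212.

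A tight group of 5 regions over 9.58 kb held 3 of the shared peaks of the Ackr3 side, at 92122103 to 92131677. Its shared peak at 92122146 to 92122699 scored 531 in replicate 1 and 686 in replicate 2. That at 92126961 to 92127525 had nearly equal scores, 404 and 393. That at 92131022 to 92131531 scored 554 in replicate 1 and 1664 in replicate 2, the highest replicate 2 score of the window, above 94.3% of its list. The group also held a near miss: a replicate 1 peak at 92128027 to 92128684 with a score of 822 and a replicate 2 peak at 92129072 to 92129545 with 224 lay 387 bp apart.

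The other shared peaks of the Ackr3 side lay singly. The lowest, at 92032872 to 92033397, scored 1001 in replicate 1 and 355 in replicate 2. The shared peak at 92169520 to 92170162 scored 557 and 269.9, and that at 92175633 to 92176269 scored 770.2 and 565. All 3 were higher in replicate 1. Replicate 2 alone had a peak of 633 at 92154954 to 92155740, one of 397 at 92157492 to 92158071 and one of 369 at 92185386 to 92185973. The peak of 633 was the second-highest replicate 2 peak without a partner in the window.

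The stretch between the genes held 17 replicate 1 peaks and 7 replicate 2 peaks, from lists of 21507 and 16160. Several of those replicate 1 peaks ranked after place 16160 of their list, the length of the replicate 2 list. With both lists cut to their 16160 highest scores, the whole window held 27 replicate 1 and 31 replicate 2 peaks, a count not made for the stretch alone. Among the upper 50% of scores of each list, the stretch held 9 replicate 1 peaks and 1 replicate 2 peak. The 17 replicate 1 peaks of the stretch included the highest score of the window in either list, 2095 at 92537496 to 92538202, above 96.4% of its list. That peak had no partner, and 6.64 kb separated it from the next replicate 2 peak. With replicate 1 peaks of 691 at 92542962 to 92543478 and 522 at 92548163 to 92548760 it formed a group over 12.1 kb with no region in both lists. The 1 replicate 2 peak there, at 92549080 to 92549585 with a score of 307, lay 319 bp from the last of them.

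Replicate 2 had no peak over 204 kb of this stretch, from 92325728 to 92530127. Replicate 1 had 4 peaks in it, all of low score, from 209 to 306. From 92.2 to 92.3 Mb replicate 1 had 4 peaks and replicate 2 had 2, with no region in both lists. The highest there was a replicate 1 peak of 909 at 92284401 to 92284998, which had its next replicate 2 peak 7.12 kb away.

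Of the 4 shared peaks of the stretch between, 1 lay below the stretch that replicate 2 left empty and 3 above it. At 92324766 to 92325832 the replicate 1 score was 1529 and the replicate 2 score 429.7. At 92530246 to 92530688 both scores were low, 225 and 272. At 92565616 to 92566428 they were 1314 and 333, and at 92572660 to 92573276 they were 938 and 301. In 3 of these 4 pairs the replicate 1 score was the higher of the pair, and in the pair of low scores it was the lower.

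On the Col6a3 side peaks lay inside and outside the approximate span of the gene of the collagen VI α3 chain. Tight groups held 3 regions over 3.06 kb, at 92634822 to 92637878, and 4 regions over 6.09 kb, at 92731196 to 92737286. Inside the approximate span of Col6a3, 80 kb long, replicate 1 had 5 peaks and replicate 2 had 4, with 2 regions in both lists. The shared peak at 92697010 to 92697514 scored 689.7 in replicate 1 and 287 in replicate 2. The shared peak at 92731284 to 92731931 had close scores, 479 and 419. Below the gene, at 92636724 to 92637878, a shared peak scored 1377 in replicate 1 and 262 in replicate 2, and a replicate 2 peak of 437 lay beside it at 92635839 to 92636388.

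Near the upper end of Col6a3, where a gene on the minus strand starts, a group of 4 regions lay at 92731196 to 92737286, ending about 3 kb short of the given end, a distance smaller than the precision of that end. It held 3 replicate 1 peaks, with scores from 349.8 to 479, and 2 replicate 2 peaks, with scores of 419 and 272, and 1 region was in both lists. The replicate 1 peaks at 92734645 to 92735161 and 92735180 to 92735698 were 18 bp apart. The replicate 2 peak at 92736689 to 92737286 was the nearest of all to the given end and had no partner. Above the end, the next replicate 2 peak was that of 759 at 92796916 to 92797552, and the next replicate 1 peak was that of 356 at 92804468 to 92804889. The replicate 2 peak of 759 was its highest without a partner in the window.

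Beyond Col6a3 the distal part had 6 peaks in each list, or 3 per 100 kb, and a long empty stretch. In replicate 2 the stretch between the genes was sparser, with 1.75 per 100 kb. No peak of either list lay from 92806917 to 92918909, which is 112 kb. The shared peak at 92806132 to 92806788 scored 244 in replicate 1 and 489 in replicate 2. At 92920424 to 92921014 the scores were 277 and 1507, so that peak was low in replicate 1, above 24.5% of its list, and high in replicate 2, above 93.0%. At 92950103 to 92950495 they were 232 and 307.5. A replicate 2 peak without a partner, with a score of 462, followed at 92954365 to 92955293.

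The scores of the 16 shared peaks were unequal in the replicates in most pairs, and neither replicate was the higher throughout. Replicate 1 was higher in 10 of 16 pairs of the window, against 49.7% of the 9223 pairs of the whole lists. It was higher in 4 of 6 pairs on the Ackr3 side, 3 of 4 in the stretch between, 3 of 3 on the Col6a3 side and 0 of 3 in the distal part. By the rank of each peak within its own list, replicate 1 was higher in 9 of 16 pairs: 3 of 6, 3 of 4, 3 of 3 and 0 of 3 in the same order of parts. In the 7 pairs of the stretch between and the Col6a3 side, replicate 2 scores kept within 262 to 429.7, while replicate 1 scores ran from 225 to 1529. With 3 to 6 pairs a part, from 1 pair of libraries, these counts are given as values, and no relation between part and replicate is read from them. A score depends on the depth and background of its own library, so a difference between the scores of a pair cannot be read as a difference in binding.

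**Figure D5:**
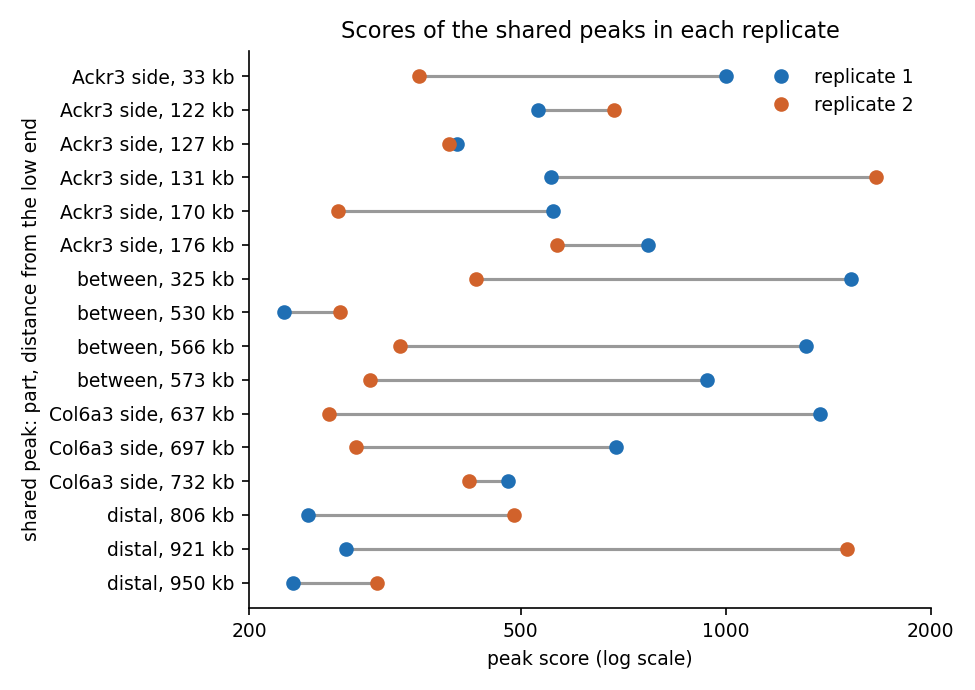
Scores of the 16 shared peaks (x axis, log scale) in replicate 1 and replicate 2, from the low end of the window at the top to its high end at the bottom, labelled by part and by distance from the low end in kb. Replicate 1 lies right of replicate 2 in 6 of the 7 pairs of the stretch between and the Col6a3 side, and left of it in all 3 distal pairs.

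Set beside pairs elsewhere in the same 2 lists, scores were within 2-fold of each other in 6 of 16 pairs, or 37.5%, against 65.4% of all pairs, and the SD of the log2 ratio was 1.37 over the 16 pairs against 1.12 over the 9223. The Spearman rho of the scores over the 16 pairs was -0.18, against 0.38 over the pairs of the whole lists. These are descriptions across peaks of 1 pair of libraries, and with 16 peaks no relation is read from them.

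The midpoints of shared peaks lay a median of 44.8 bp apart, against 37.5 bp in the whole lists, and 14 of 16 lay within 100 bp. The others were 322 and 102.5 bp apart, with scores of 1377 and 262 in the one and 1529 and 429.7 in the other. Scores were also far apart in pairs with close midpoints. The pair with the widest score ratio, 277 and 1507, had midpoints 18.5 bp apart, so no link of distance and score is read here. The distance of 322 bp was at the peak below Col6a3 that was 1155 bp wide in replicate 1 and 515 bp in replicate 2. The median width of peaks in the window was 543 bp in replicate 1, against 538 bp in its list, and 588 bp in replicate 2, against 613 bp.

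Peaks without a partner lay at unequal distances from the other list. Of the 23 in replicate 1, 6 had a replicate 2 peak within 1 kb, while 12 were more than 10 kb from any, with a median of 11.9 kb and a largest distance of 74.1 kb. Of the 15 in replicate 2, 6 had a replicate 1 peak within 1 kb and 3 were more than 10 kb from any, with a median of 3.87 kb. These distances were taken in this crowded window only. Without the same values over the whole lists, they do not show whether the window is unusual. The median score in replicate 1 was 556 with a partner and 349.8 without, against 521 and 363 in its whole list. In replicate 2 the medians were 374 and 360.1, a smaller gap than the 510.0 and 314 of its whole list.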

How the data were processed

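The authors deposited 1 peak list for each NR6A1 library, so peaks were called per sample. The submitters' processing notes name Bowtie 0.12.7, MACS and mm9 without their roles; the control library, the threshold and the version of MACS are not given in the sources used here. A score was deposited for each peak and is read here as MACS's log-transformed p-value from its range. A score depends on the depth and background of its own library, and read depth is unknown, so a peak absent from a list may have been just short of the threshold there.

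Peaks were placed by midpoint, and positions are written with the first base as 1. Partners overlapped by at least 1 bp, and peaks of either list that overlapped were joined into regions (Python 3.11.15, numpy 2.4.6, pandas 2.3.3, scipy 1.17.1). The code was tested on simulated lists with sites far apart, which held no peaks lying close beside each other as some do here. Approximate mm9 positions of the genes came with the definition of the window. The window, its parts, the motifs and the rule for named peaks were chosen with earlier results of these data known. That rule names every shared peak, the 3 highest-scoring peaks of each list without a partner, and the peaks nearest to each gene. Groups of peaks, empty stretches and the ranking of dense windows were added after the values were seen. No test was made, since there is 1 list per replicate and peaks are not replicates of a condition. Counts near other chemokine and collagen VI genes were not run, for want of mm9 gene positions.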

Additional observations from a re-analysis of the deposited data

How the results depend on the processing

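Of 54 values under an alternative, 37 stayed within 1.5 times the reported count, or within the interval of the reported share, and 17 moved; the values carry no test. Merging peaks up to 500 bp apart moved none. Placing peaks by any overlap could add only peaks lying across a border, too few to pass the 1.5 limit, and changed no count. Leaving out peaks at or above 3100 could move none, since no peak of the window reached that score. The values of these last alternatives are counted among the 37 and say nothing of stability. The share with a partner stayed within its interval with 50% reciprocal overlap, midpoints within 100 bp and equal list sizes. Dropping the lower 50% of scores from each list shortens the lists by construction. It left 21 replicate 1 and 12 replicate 2 peaks in the window, and 5 of the 21, or 23.8%, had a partner, against 38.0% of the replicate 1 list at that limit. By part it left 9, 4 and 1 replicate 1 peaks in the stretch between, on the Col6a3 side and in the distal part, and 5, 1, 3 and 3 replicate 2 peaks in the 4 parts in order. It left 5 regions in both lists and 7 in replicate 2 only. Moving the windows by 500 kb gave 279 windows with as many replicate 1 peaks at the lower place and 77 at the upper, and 217 and 65 for replicate 2, since each place holds 1 side of the crowded stretch. Leaving out a replicate gave 7 to 17 peaks in the stretch between, against a mean of 12 over both lists. The density of that stretch thus depended on the list taken, and the replicate 1 list is the longer. No paired analysis was possible because no list of the vector libraries was used, so shared replicate numbers could not pair them.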
